A study of Canis lupus familiaris with 33 samples.

Results

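BRAF and 9 outputs of ERK signaling were followed in 29 canine invasive urothelial carcinomas (iUC) and 4 samples of normal canine bladder mucosa. The 10 genes, BRAF, DUSP4, DUSP6, SPRY2, SPRY4, SPRED2, ETV4, FOSL1, PHLDA1 and EPHA2, were chosen by symbol, and each has 1 row among the 25096 genes of the table normalized by TMM (trimmed mean of M values). The tumors were high-grade biopsies of mostly epithelial tissue, taken by cystoscopy from untreated dogs with 1 tumor for each dog. The normals, named A to D, were the urothelial layer dissected from the bladders of dogs euthanized for reasons unrelated to the bladder. The labels give no genotype, strain or age for either group, and no sample was treated with an agent. The BRAF genotype of the tumors was not analysed here.

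BRAF is a kinase that passes the signal of an activated receptor and RAS to MEK and then to ERK, and an activating BRAF mutation is common in canine iUC. Active ERK induces genes that feed back on the same pathway, among them the phosphatases DUSP4 and DUSP6, which remove the activating phosphates of MAP kinases, and the Sprouty and SPRED proteins, which restrain RAS and RAF. ERK also induces transcription factors such as ETV4 and FOSL1, and the mRNA levels of these outputs are widely used as a readout of pathway activity. Phosphorylated ERK was not measured in these samples.

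Values are on a log2 scale and relative to the gene's own median in the 33 samples, so they compare samples for 1 gene and not genes with each other. The study's methods describe sequencing to an average of 50000000 reads, and the read count of each sample is not known from these values. None of the 10 genes had a lowest value that several samples share, which marks a normalized value at the floor of the table, and all 10 passed the filter on low values. The normals stood apart from the tumors in 3 other ways. Between 755 and 1019 genes were at a shared lowest value in a normal against 3699 to 8175 in a tumor, and 99.4% to 99.8% of 467 olfactory receptor genes, which bladder has no known use for, lay above it in the normals against 6.21% to 91.9% in the tumors. All 6 smooth muscle markers, all 6 fibroblast markers and all 3 nerve and Schwann cell markers tested were lower in tumors, and ACTG2, the smooth muscle actin, lay between 6.12 and 8.36 in the normals against a tumor median of -0.07. Of the markers of urothelium, EPCAM and CDH1 were lower in the normals: the mean of both genes lay between -2.82 and -1.65 in normals and between -0.62 and 1.17 in tumors. The uroplakins UPK1A and UPK2, the defining proteins of the urothelial surface, lay between -0.04 and 0.38 in normals A, B and C, close to the tumor medians of 0.00 and -0.05, and at -1.27 and -2.14 in normal D. Of all 7 urothelial markers tested, UPK3A, EPCAM and CDH1 were called higher in tumors and KRT20 lower. Of 8 immune markers 1 was called higher and 2 lower, and of 4 endothelial markers none was called by limma, nor had any an unadjusted p under 0.05. These marker counts stand beside 10.7% of all genes called higher and 45.8% called lower. At an unadjusted p under 0.05 the shares of all genes were 24% and 49.1%. The mean level of the smooth muscle markers ran from 4.54 to 6.58 in normals and from -1.29 to 3.52 in tumors, with the highest value in tumor 7_733858. The part of these differences in the results was not tested.

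Most outputs of ERK signaling were higher in iUC than in normal mucosa, whereas BRAF itself did not pass the test. By limma with Benjamini-Hochberg adjustment over 24471 genes, 7 of the 10 genes rose at least 2-fold in tumors (DUSP4, ETV4, DUSP6, PHLDA1, EPHA2, SPRED2 and FOSL1), 1 fell (SPRY2), and BRAF and SPRY4 did not pass the test. Of all genes tested, 10.7% were called higher and 45.8% lower by the same rule. The median log2 difference of the 10 genes was 1.45, beside -0.84 over all genes tested, and the median over all genes was -0.01 when only genes above the lowest value in at least 17 samples were tested. In bulk tissue, fewer cells of a type and less RNA per cell cannot be told apart, and the difference in smooth muscle, fibroblast and epithelial markers moved with every one of these calls, in a part that was not tested. When each sample was centred on its own EPCAM and CDH1, a choice made with the values in view, DUSP4 alone remained called higher, the differences of DUSP6 and ETV4 stayed positive without passing the test, those of PHLDA1, EPHA2, SPRED2, FOSL1 and BRAF turned negative, and the median over all genes moved to -3.0. This centring subtracts the same amount from every difference, and with it 0.151% of all genes were called higher and 90.8% lower.

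**Figure D1:**
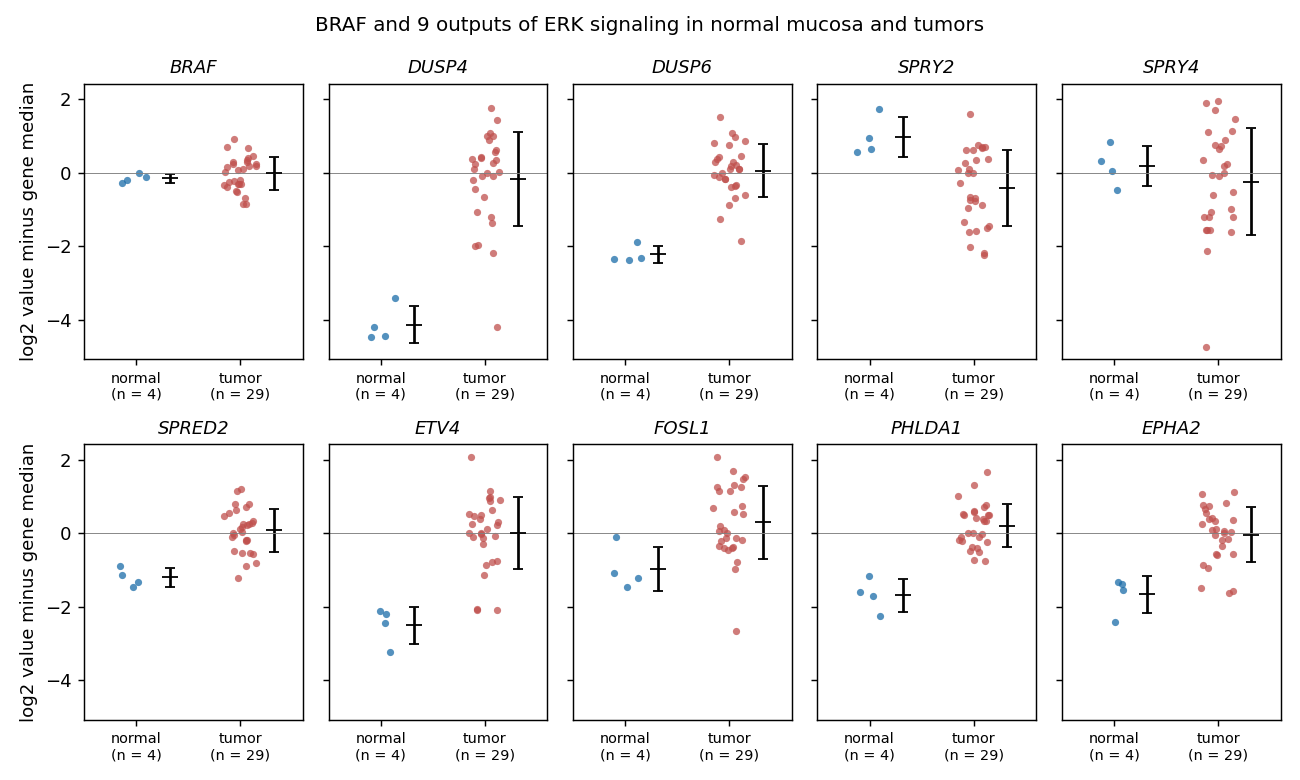
Each panel plots the log2 value minus the gene median (vertical axis) of 1 gene in the 4 normals (blue) and the 29 tumors (red), with the mean and SD as a black bar beside the points. The tumors lie above every normal for DUSP6, ETV4 and PHLDA1, and for BRAF and SPRY4 the normals lie inside the wider range of the tumors. With samples centred on EPCAM and CDH1, the difference of PHLDA1 turns negative.

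DUSP4, the nuclear MAP kinase phosphatase, showed the largest difference of the 10 genes. Its values in normals A, B, C and D were -3.41, -4.47, -4.45 and -4.21, and the tumors ranged from -4.20 to 1.75 around a median of 0.09. All but 1 tumor lay above every normal, the exception being tumor 20, which was as low as the normals. The difference of 3.96 ± 0.64 (SE, 15.6-fold) passed the test by limma (adjusted p = 1.64e-06), and it was 1.80 ± 0.66 (SE, adjusted p = 0.0108) with samples centred on EPCAM and CDH1.

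DUSP6, the cytoplasmic phosphatase of ERK and a direct readout of its activity in many tumors, separated the groups without overlap. The normals had values of -1.88, -2.34, -2.34 and -2.37 in the order A to D, and the tumors ranged from -1.85 in tumor 20 to 1.53 in tumor 2, with a median of 0.10. Tumor 20 again lay at the edge of the normals, just above normal A. DUSP6 was 2.28 ± 0.36 higher in tumors (SE, 4.86-fold, limma adjusted p = 1.11e-06), but 0.12 ± 0.41 with samples centred on EPCAM and CDH1 (adjusted p = 0.786).

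Neither Sprouty gene was called higher in tumors. SPRY2, an inhibitor of receptor signaling to RAS, was 0.55, 0.95, 0.66 and 1.74 in normals A to D and ranged from -2.23 to 1.59 in tumors, with a median of -0.29. No tumor exceeded the highest normal, and 22 of 29 lay below all 4 normals. SPRY2 fell by 1.39 on the log2 scale (SE 0.52, limma adjusted p = 0.0167). The call rested on normal D, without which the difference was -1.14 and no longer passed (adjusted p = 0.0914). The difference of SPRY2 was -3.56 ± 0.61 (SE, limma adjusted p = 2e-06) with samples centred on EPCAM and CDH1. SPRY4, its paralog, had values of -0.48, 0.32, 0.05 and 0.84 in the normals and the widest range of the 10 genes in tumors, from -4.73 in tumor 2_699898 to 1.94 in tumor 12, with a median of -0.07. Of the tumors, 7 lay above all normals, 13 below and 9 within their range, and the difference of -0.42 ± 0.72 (SE) did not pass the test by limma (adjusted p = 0.605). With samples centred on EPCAM and CDH1 it was called lower, at -2.59.

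SPRED2, which brings the RAS inactivator neurofibromin to the membrane, was -1.32, -0.88, -1.12 and -1.47 in the normals. In tumors it ranged from -1.21 in tumor 5 to 1.20 in tumor 3, with a median of 0.12, and 27 of 29 tumors lay above every normal. It was 1.28 ± 0.30 higher in tumors (SE, 2.43-fold, limma adjusted p = 3.45e-04), near the 2-fold threshold. In the table normalized by DESeq the difference was 0.98 and under that threshold, and it turned to -0.89 with samples centred on EPCAM and CDH1.

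ETV4, an ETS transcription factor of the PEA3 group that ERK signaling induces, was -2.20, -2.45, -3.24 and -2.13 in normals A to D. The tumors ranged from -2.09 to 2.08 around a median of 0.12, and all 29 lay above every normal. Tumors 11, 8_734_223 and Za were just above normal D, and the highest value was in tumor 2. The difference was 2.51 ± 0.49 (SE, 5.69-fold, limma adjusted p = 3.56e-05), and 0.34 ± 0.51 with samples centred on EPCAM and CDH1 (adjusted p = 0.514).

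FOSL1, an AP-1 subunit of the FOS family, overlapped between the groups. Normals A to D had values of -1.22, -0.11, -1.45 and -1.09, and the tumors ranged from -2.65 in tumor 8_734_223 to 2.08 in tumor 12, with a median of 0.10. Of the tumors, 17 lay above every normal, 11 within their range and 1 below. The difference of 1.27 ± 0.50 (SE, 2.41-fold) had an adjusted p of 0.0236 by limma the largest of the 7 rises. It was 0.97 in the table normalized by DESeq (adjusted p = 0.0854), it was 1.19, 1.11 and 1.23 and not called without normal A, C or D, and it turned to -0.90 with samples centred on EPCAM and CDH1.

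PHLDA1, a pleckstrin homology-like protein induced by ERK, was -1.71, -1.17, -2.26 and -1.60 in the normals and ranged from -0.75 to 1.67 in tumors, with a median of 0.34. All 29 tumors lay above all normals. The rise of 1.90 ± 0.30 (SE, 3.72-fold, limma adjusted p = 1.45e-06) had the smallest standard error among the called members together with that of SPRED2, and the difference was -0.27 ± 0.37 with samples centred on EPCAM and CDH1.

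EPHA2, a receptor tyrosine kinase for ephrins whose transcription ERK raises, was -1.54, -1.32, -1.37 and -2.41 in the normals. Its tumor values ran from -1.61 in tumor Za to 1.13 in tumor 11 around a median of 0.06, and 26 of 29 tumors lay above every normal. The rise was 1.62 ± 0.38 (SE, 3.08-fold, limma adjusted p = 3.45e-04). With samples centred on EPCAM and CDH1 it was -0.54 ± 0.44.

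BRAF mRNA was -0.29, -0.21, -0.12 and 0.00 in normals A to D and ranged from -0.86 in tumor Za to 0.91 in tumor CH, with a median of 0.07. The normals lay inside the range of the tumors, of which 16 were above and 10 below all of them. The difference of 0.14 ± 0.24 (SE) did not pass the test by limma (adjusted p = 0.612), its sign changed in the table normalized by DESeq (-0.16), and it was called lower, at -2.03 ± 0.34, with samples centred on EPCAM and CDH1.

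**Figure D2:**
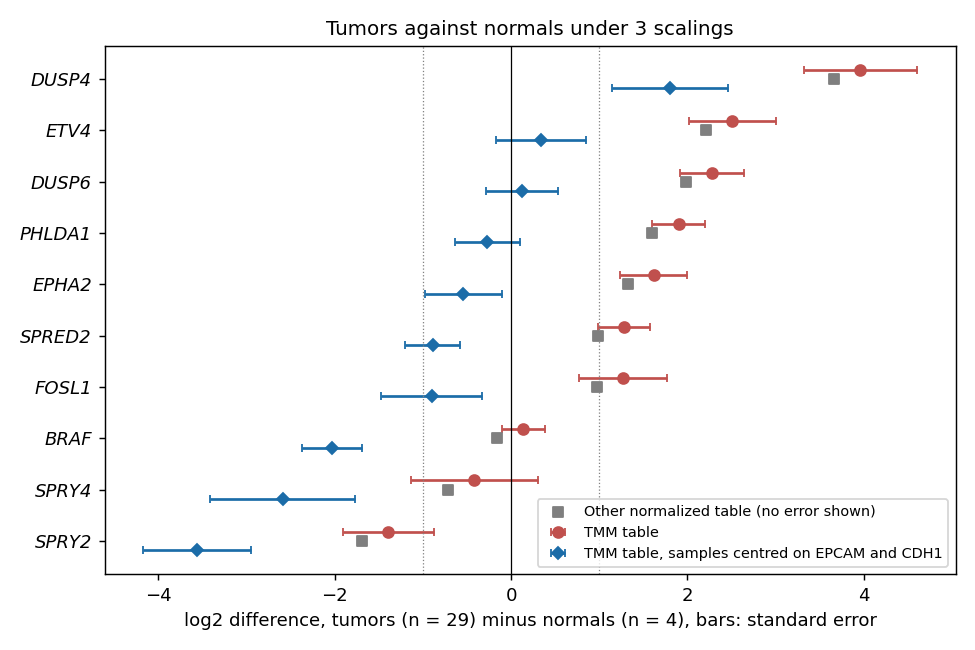
The horizontal axis is the log2 difference between 29 tumors and 4 normals for each of the 10 genes, with bars for the standard error and dotted lines at a 2-fold change. Red circles give the TMM table, grey squares the table normalized by DESeq and blue diamonds the TMM table with samples centred on EPCAM and CDH1, where DUSP4 is at 1.80, DUSP6 and ETV4 lie near 0 and PHLDA1, EPHA2, SPRED2, FOSL1 and BRAF are negative.

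The other genes of the pathway moved in both directions. Of 60 tested genes in 5 pathway lists, 13 were called higher and 8 lower, beside 10.7% and 45.8% of all genes, and with samples centred on EPCAM and CDH1 none of the 60 was called higher and 46 were called lower, beside 0.151% and 90.8% of all genes with that centring. Within the RAS to ERK cascade, 2 of 14 rose and 2 fell, with a median log2 difference of 0.69. RPS6KA1, a kinase downstream of ERK, rose by 1.46 ± 0.28 (SE, adjusted p = 2.42e-05) and the RAS gene NRAS by 1.32 ± 0.17 (SE, adjusted p = 3.85e-08), whereas the scaffold KSR2 fell by 1.81 (SE 0.81, adjusted p = 0.0454) and the kinase RPS6KA2 fell by 1.33 (SE 0.48, adjusted p = 0.0134), all by limma. KSR2 lost its call when any of the 4 normals was left out, with differences from -2.02 to -1.71, and RPS6KA2 without normal D, at -1.06. The call of KSR2 was also lost with the filter of at least 17 samples (limma adjusted p = 0.0507) and with a weight per group (limma adjusted p = 0.0668). With samples centred on EPCAM and CDH1 the differences of RPS6KA1 and NRAS were -0.71 and -0.84. Of 8 RAS GTPase-activating proteins, which switch RAS off, DAB2IP and RASA1 rose by 1.46 ± 0.22 and 1.16 ± 0.20 (SE), and RASA3 fell by 1.15 (SE 0.44), where DAB2IP and RASA1 had differences of -0.70 and -1.0 after that centring. RASA1 was at 0.87 and not called in the DESeq table, and RASA3 was at -1.11 and -1.12 and not called without normal C or D.

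None of 8 other genes listed as feedback inhibitors was called higher by limma and 2 were called lower, beside 10.7% and 45.8% of all genes. None had a positive difference at an unadjusted p under 0.05, beside 24% of all genes. The 2 called lower were the MAP kinase phosphatases DUSP8 and DUSP2, which fell by 2.07 (SE 0.65, adjusted p = 0.00502) and 1.21 (SE 0.50, adjusted p = 0.0314). DUSP2 lost its call without normal B, C or D, with differences from -1.21 to -1.04. The median of this list was -0.63, beside 1.45 for the 10 genes and -0.84 over all genes tested. Other transcription factors and effectors induced by ERK were called higher in 6 of 16 cases and lower in 0, beside 10.7% and 45.8% of all genes, and 7 were higher and 0 lower at an unadjusted p under 0.05, beside 24% and 49.1% of all genes. FOSB and FOS, AP-1 subunits of the immediate-early response, rose by 2.93 ± 0.87 and 2.13 ± 0.63 (SE), PLAUR, the urokinase receptor, rose by 1.81 ± 0.52 (SE), and JUNB, IER2 and ELK3 were also called. In the DESeq table IER2 was at 0.85 and ELK3 at 0.80, and neither was called. With samples centred on EPCAM and CDH1, FOSB had a difference of 0.76 and FOS of -0.03, and the other 4 were negative, with IER2 (-1.01) and ELK3 (-1.07) called lower. Among 14 receptors and ligands upstream of RAS, 3 rose and 3 fell. ERBB3 and FGFR4, receptors for neuregulins and fibroblast growth factors, were higher by 2.24 ± 0.22 and 2.13 ± 0.69 (SE), with differences of 0.08 and -0.04 after that centring, and the EGF-family ligand BTC fell by 3.64 (SE 0.57).

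The 10 genes varied to different degrees among the tumors. SPRY4 had an SD of 1.46 over the 29 tumors, above 90.1% of the 17994 genes that lay above the lowest value in at least 15 tumors, and DUSP4 had an SD of 1.27, above 83.5%. BRAF was the least variable, with an SD of 0.46 that exceeded 26.9% of genes. SPRED2 and PHLDA1 both had an SD of 0.59, DUSP6 of 0.71 and EPHA2 of 0.75, and SPRY2, ETV4 and FOSL1 lay between 0.98 and 1.03. The median SD of all these genes was 0.71.

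The values of the tumors at either end of the outputs are given as a description, since the outputs chose them. The 3 tumors with the lowest mean of the 9 outputs, each scaled to its SD over the tumors, were 8_734_223, 20 and Za. Tumor 20 combined the lowest DUSP4 (-4.20) and DUSP6 (-1.85) with a low BRAF of -0.85, but its EPHA2 (0.09) and SPRED2 (0.12) were at the tumor median. Tumor 8_734_223 had values of -1.96 for DUSP4, -2.08 for ETV4, -2.65 for FOSL1 and -1.56 for EPHA2. Tumor Za had values of -1.98 for DUSP4, -2.07 for ETV4 and -1.61 for EPHA2, with the lowest BRAF. SPRY2 was not low in any of the 3, at 0.66, 0.10 and 0.76.

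Tumors at the high end differed in which outputs were high. Tumor 2 had the highest DUSP6 (1.53), ETV4 (2.08) and SPRY2 (1.59) and yet the second lowest DUSP4, at -2.18. Tumor 12 had the highest FOSL1 (2.08) and SPRY4 (1.94), with SPRY2 at -1.34, and tumor 15 had the highest PHLDA1 (1.67) and a value of 1.69 for FOSL1. The number of the 9 outputs above their tumor median ranged from 1 to 8 per tumor, with 5 tumors at 2 or fewer and 5 at 7 or more.

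**Figure D3:**
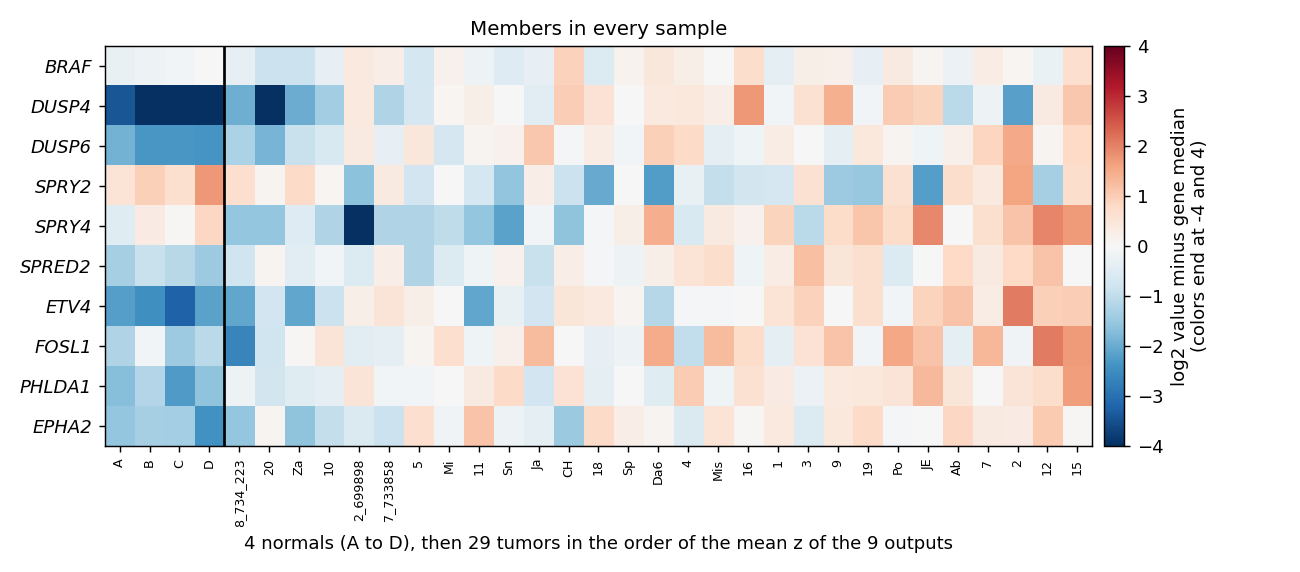
Rows are the 10 genes and columns the 4 normals followed by the 29 tumors in the order of the mean of the 9 outputs, and color gives the log2 value minus the gene median, with the scale ending at -4 and 4. DUSP4, DUSP6, ETV4, PHLDA1 and EPHA2 are low in all 4 normals, tumor 20 matches the normals in DUSP4, and SPRY2 is high in several tumors where DUSP4 is low. The difference to normals of PHLDA1 and EPHA2 turns negative with samples centred on EPCAM and CDH1.

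Co-variation among the tumors asked whether the outputs rise and fall as a unit. Over the 29 tumors, 36 of the 45 pairs had a positive Pearson's r, with a median of 0.263 and a range from -0.481 to 0.639. No pair passed the test by limma with adjustment over all 179930 combinations of a member and a gene, where 0.0661% of combinations were called positive and 0.0345% negative. At an unadjusted p under 0.05, limma gave 12 pairs, of which 11 were positive, and a permutation test of r gave 12. Of all combinations of a member and a gene, 5.49% were positive and 5.67% negative at this unadjusted threshold, with 1 direction of fit, where a pair had to pass in both. The lowest adjusted p was 0.0993. Of the 9 pairs with SPRY2, 8 had a negative r, against 1 of the 36 pairs without it. The pairs with SPRY2 had a median r of -0.057, and only that with DUSP4 had an unadjusted p under 0.05 by limma.

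BRAF and DUSP4 had the highest r of the 45 pairs. Tumors with more BRAF mRNA had more DUSP4 mRNA, with Pearson's r = 0.639 (permutation p = 1.1e-04) and Spearman's rho = 0.65 (permutation p = 1.9e-04), and leaving out the 2 tumors with BRAF farthest from its median gave r = 0.502. The adjusted p by limma was 0.0993, and it ranged from 0.0822 to 0.371 over the alternatives, with the highest value when tumors 20, 8_734_223 and Za were left out. BRAF with PHLDA1 had r = 0.463 (permutation p = 0.0112), rho = 0.433 (permutation p = 0.02) and r = 0.337 without the 2 farthest tumors (limma adjusted p = 0.313).

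SPRY4 and FOSL1 followed, with r = 0.548 (permutation p = 0.00262), rho = 0.554 (permutation p = 0.00218), and r = 0.607 without the 2 tumors farthest from the median of SPRY4, which include tumor 2_699898 with its very low SPRY4. SPRED2 and ETV4 had r = 0.527 (permutation p = 0.00346) and rho = 0.549 (permutation p = 0.00232). DUSP4 was related to PHLDA1 (r = 0.519, permutation p = 0.0038, rho = 0.499, permutation p = 0.00644) and to FOSL1 (r = 0.512, permutation p = 0.00563, rho = 0.448, permutation p = 0.0159). Without the 2 farthest tumors these 3 values of r were 0.586, 0.529 and 0.503, and without tumors 20, 8_734_223 and Za their limma adjusted p were 0.385, 0.535 and 0.511. For SPRED2 with ETV4 the highest limma adjusted p was 0.482, with immune markers as a covariate and all tumors kept. In 1 of 11 settings each of these 3 pairs had an unadjusted p above 0.05, at 0.0589, 0.0753 and 0.0637. In the main fit, with all tumors and no covariate, the limma adjusted p of the pairs in this paragraph lay between 0.16 and 0.204.

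For the phosphatases the measures of correlation differed. DUSP4 and DUSP6 had r = 0.386 (permutation p = 0.0413) but rho = 0.0887 (permutation p = 0.649), and r was 0.354 without the 2 farthest tumors. The relation changed sign without tumors 20, 8_734_223 and Za, also a choice made with the values in view, for their low outputs. DUSP6 and ETV4 had r = 0.464 (permutation p = 0.0118) and rho = 0.349 (permutation p = 0.0643), and r was 0.339 without the 2 farthest tumors. DUSP4 and SPRY2 were related inversely, with r = -0.481 (permutation p = 0.00743), rho = -0.444 (permutation p = 0.0163) and r = -0.45 without the 2 farthest tumors (limma adjusted p = 0.269). Across these 45 pairs, leaving out those 3 tumors lowered the number at an unadjusted p under 0.05 from 12 to 6.

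**Figure D4:**
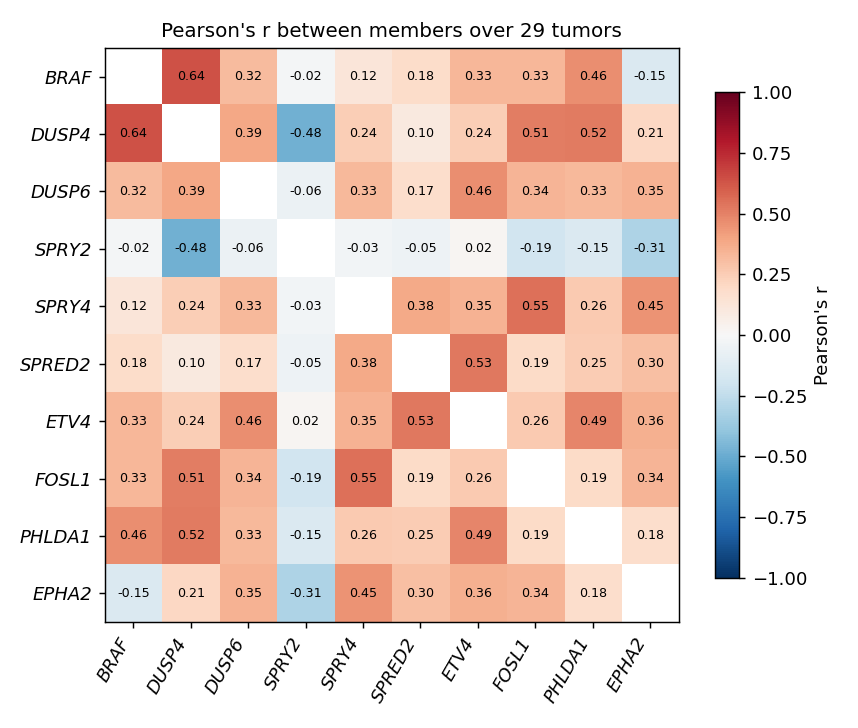
Each cell gives Pearson's r over 29 tumors between the genes of its row and column, in red for positive and blue for negative values. The highest r is 0.64, between BRAF and DUSP4, and the row of SPRY2 holds 8 of the 9 negative values, with a median r of -0.057 in that row.

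The genes whose pattern over the tumors was most like each member are described by Pearson's r over the same 29 tumors, among genes with a symbol. For DUSP4 they included F2R, the thrombin receptor (r = 0.841), and FHAD1 (0.802). DUSP6 had among its closest genes the metalloprotease ADAM9 (0.743) and the transcription factor FOXA2 (0.708). For ETV4 they were the guanine nucleotide exchange factor VAV2 (0.875), the actin-binding RAI14 (0.789) and the taurine transporter SLC6A6 (0.758). FOSL1 was most like the pseudokinase TRIB1 (0.744), the methyltransferase CARM1 (0.726) and MTCL1 (0.703).

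SPRY4 varied most like TOX2 (r = 0.795), the phosphate transporter SLC20A1 (0.748) and the receptor adapter GRB10 (0.727). SPRY2 had its closest matches in LRRC6 (0.704), the proteoglycan gene PODN (0.691) and the phospholipid transfer protein PLTP (0.689), and SPRED2 in the endocytic adapter EPN2 (0.751), the nuclear envelope gene SUN1 (0.714) and KLHL21 (0.673). PHLDA1 was most like FAM102B (0.704), TNFSF11, the ligand RANKL (0.674), and the sulfotransferase CHST1 (0.664). EPHA2 was most like the Integrator subunit INTS5 (0.747), the desmosomal PKP3 (0.735) and the deiminase PADI2 (0.704). None of the matches was itself one of the 10 genes. In numbers of genes called over the tumors by limma, DUSP4 led with 37 positive and 22 negative, followed by ETV4 with 17 and 9 and BRAF with 17 and 6, and SPRED2 had 1 of each. Without tumors 20, 8_734_223 and Za, which were chosen for low outputs so that the range of the members shrinks by construction, DUSP4 had 1 positive and 1 negative, ETV4 5 and 1, and BRAF 2 and 1. Without the 2 tumors highest in smooth muscle markers DUSP4 had 31 and 18. With ranks in place of values no gene was called with any of the 10.

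The closest genes to BRAF were UBN2 (r = 0.786), MSANTD3-TMEFF1 (0.781) and the RNA-binding RBM33 (0.765). UBN2 and RBM33 lie on chromosome 16 with BRAF, as placed in the RefSeq table of assembly UU_Cfam_GSD_1.0. The following values were looked at because of this, so they are descriptions with no test. Over 252 genes of chromosome 16, the median r with BRAF was 0.228, the highest of 26 chromosomes with at least 50 genes, against -0.00863 over all genes. Of the 20 nearest neighbors of BRAF 16 had a positive r, with a median of 0.267, and for EPHA2 it was also 16, with a median of 0.325. Chromosome 16 also ranked first for DUSP4, with a median r of 0.219 over 253 genes, and the place of DUSP4 itself was not found in the table. The mean scaled level of these 252 genes had r = 0.586 with BRAF (rho = 0.642, r = 0.503 without the 2 farthest tumors). With DUSP4 it had r = 0.56 and rho = 0.33, and r was 0.226 without the 2 farthest tumors, so that relation rested on them. The kinase gene AGK, a neighbor of BRAF chosen after its values were seen, had r = 0.759 with DUSP4 (rho = 0.534) and r = 0.598 with BRAF (rho = 0.5), the highest r with BRAF among its 20 neighbors. Without the 2 tumors farthest from the median of AGK these r were 0.582 and 0.508. The number of gene copies was not measured, and its part in the relation of BRAF with DUSP4 was not tested. For the other 8 genes with a place in the table, the own chromosome ranked first for EPHA2 only, with a median r of 0.185 over 506 genes.

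With all tumors and the values as they are, ETV4 alone was called by limma with genes of the fixed pathway and marker lists. It was related to ETV1, another member of the PEA3 group, with r = 0.686 (permutation p = 4e-05), rho = 0.732 (permutation p = 2e-05), r = 0.676 without the 2 farthest tumors and an adjusted p of 0.0341. It was inversely related to CD68, a marker of macrophages, with r = -0.717 (permutation p = 2e-05), rho = -0.718 (permutation p = 2e-05), r = -0.725 without the 2 farthest tumors and an adjusted p of 0.0256, and to the myeloid integrin ITGAM with r = -0.68 (permutation p = 4e-05), rho = -0.666 (permutation p = 9e-05), r = -0.595 without the 2 farthest tumors and an adjusted p of 0.0459. None of the 3 calls held with ranks (adjusted p = 0.24 for each), with immune markers as a covariate (adjusted p from 0.128 to 0.437), a measure that holds CD68 and ITGAM themselves, or without tumors 20, 8_734_223 and Za (adjusted p from 0.192 to 0.278), and with EPCAM and CDH1 as a covariate ETV1 (adjusted p = 0.0519) and ITGAM (adjusted p = 0.0692) lost theirs. ITGAM was also not called without the filter, with stromal markers as a covariate or without the 2 tumors highest in smooth muscle markers (adjusted p from 0.0538 to 0.06). With immune markers as a covariate FOSL1 was called with EGR1 instead. Over the mean of 8 immune markers, ETV4 had r = -0.63 (permutation p = 3.3e-04, rho = -0.609, permutation p = 6.5e-04, r = -0.498 without the 2 farthest tumors), SPRED2 r = -0.442 (permutation p = 0.016, rho = -0.437, permutation p = 0.0188) and EPHA2 r = -0.385 (permutation p = 0.0394, rho = -0.259, permutation p = 0.176), among 40 relations of the 10 genes with 4 marker measures, and no adjustment was made over these. The percentage of olfactory receptor genes detected in this sense gave r between -0.269 and 0.224 with the 10 genes, and none had a permutation p under 0.05. With smooth muscle and fibroblast markers SPRY2 had r = 0.369 (permutation p = 0.0491, rho = 0.382, permutation p = 0.0419, r = 0.311 without the 2 farthest tumors), and with the mean of EPCAM and CDH1 SPRED2 had r = 0.442 (permutation p = 0.0156, rho = 0.521, permutation p = 0.00395).

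**Figure D5:**
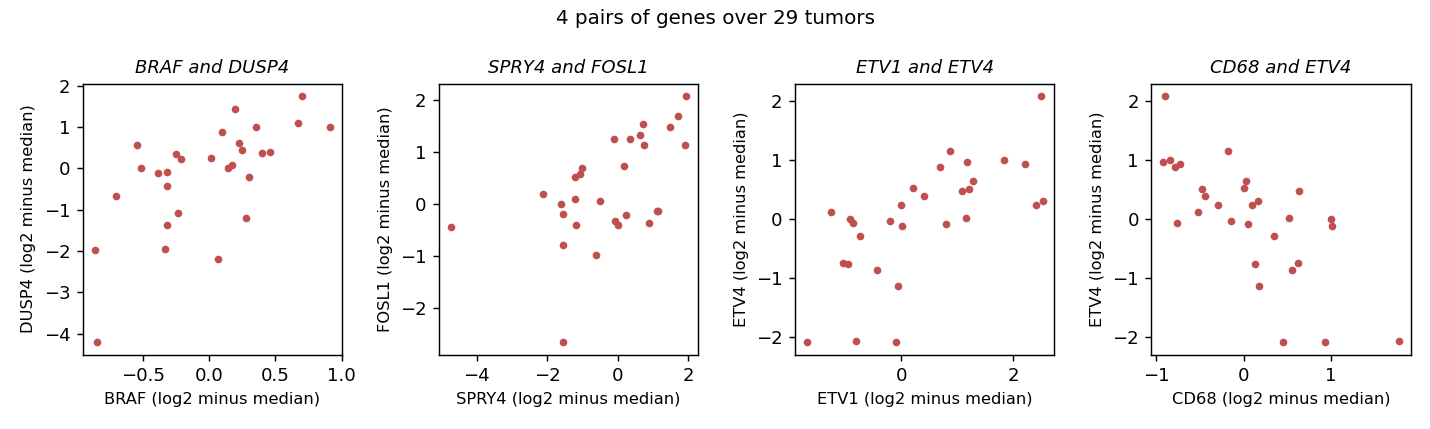
Each panel plots 29 tumors, with the log2 value minus the gene median of 1 gene on each axis. From left to right they show BRAF with DUSP4 (r = 0.639), SPRY4 with FOSL1 (r = 0.548), ETV1 with ETV4 (r = 0.686) and CD68 with ETV4 (r = -0.717), and tumor 20 is the point at the bottom left of the first panel.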

How the data were processed

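The authors removed ribosomal RNA, sequenced 150-base paired-end reads on an Illumina HiSeq 4000, aligned them to CanFam 3.1 with COBWeb in Strand NGS 3.1, and deposited 2 tables of log2 values, normalized by TMM or by DESeq, each gene being centred on its median in the 33 samples. The study's methods describe sequencing to an average of 50000000 reads for each sample. The values are not counts, the depth of each sample is not known from them, and no counting interval can be given. The last line of each table, which is incomplete, was left out.

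Tumors and normals were compared on the TMM table with limma 3.58.1 in R 4.3.3 (eBayes with trend) over genes above a lowest value shared by several samples in at least 4 samples, and a gene was called from a 2-fold change upward if its Benjamini-Hochberg adjusted p did not exceed 0.05. The study's methods name count tests, which these values do not allow. For co-variation, each member was a covariate in limma over genes above the lowest value in at least 15 tumors, adjusted over all members and genes together, and a pair was called if the larger adjusted p of both directions passed. Correlations have two-sided permutation p-values from 100000 resamples, with 1e-05 the smallest they can give, and were repeated without the 2 tumors farthest from the median of the first gene or the marker measure. Alternatives were the other deposited table, ranks, no trend, other filters, no fold threshold, group weights, other centrings, covariates and samples left out. Both tests were checked on simulated data. From each pathway list the 3 called genes with the largest change are named, with others named where a count is spelled out, and for each member the 3 genes with the highest r, of which some are not reported here. The members, lists and tests were chosen with earlier results of these data known. Names and chromosomes are from RefSeq, assembly UU_Cfam_GSD_1.0. Tables and plots were made with matplotlib 3.10.9, numpy 2.4.6 and pandas 2.3.3 in Python 3.11.15. List genes without a row in the tables were not analysed here. P-values measure the spread between these samples.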

Additional observations from a re-analysis of the deposited data

Results flagged for a closer look

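DUSP6 in the normals had 1 value far from the others. Normal A was at -1.88, and the other 3 normals lay between -2.37 and -2.34, so that the gap made up 0.938 of the range, above Dixon's 95% critical value for 4 samples. Of 24 genes examined in this way, this was the only one, and chance alone flags about 1 in 20 groups.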

How the results depend on the processing

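With samples centred on EPCAM and CDH1, chosen after the data were seen, 1 member instead of 7 was called higher and 3 instead of 1 lower, and of the pathway genes 0 instead of 13 were higher and 46 instead of 8 lower, since this centring subtracts 2.16 from each difference, and 0.151% of all genes were higher and 90.8% lower. Among the members and the pathway genes called higher, differences that turned negative were those of BRAF (-2.03), SPRED2 (-0.89), FOSL1 (-0.90), PHLDA1 (-0.27), EPHA2 (-0.54), DAB2IP (-0.70), FGFR4 (-0.04), FOS (-0.03), PLAUR (-0.36), RASA1 (-1.0), RPS6KA1 (-0.71), NRAS (-0.84), ERBB2 (-0.55), JUNB (-0.71), IER2 (-1.01) and ELK3 (-1.07). BRAF was also negative in the DESeq table (-0.16), where 5 members were called higher, without SPRED2 and FOSL1, with 10 pathway genes higher and 11 lower beside 5.62% and 49.1% of all genes. The cause was not tested. Without a fold threshold, 21 pathway genes were higher, beside 22.9% of all genes. Leaving out each normal in turn gave 6 to 7 members higher and 0 to 1 lower, with 0 lower without normal D, and 12 to 14 pathway genes higher and 4 to 7 lower, with 5 without normal C and 4 without normal D. No pair of members was called under any alternative. The pairs at an unadjusted p under 0.05 numbered 12, fell to 6 without tumors 20, 8_734_223 and Za, where DUSP4 with DUSP6 turned negative (adjusted p = 0.674), and were 9 to 16 otherwise. Between 6 and 7 members had a spread above the median gene. No paired analysis was possible because tumors and normals share no replicate number. The number of normals, 4, limits the precision of every comparison with normal mucosa.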
